A study of Homo sapiens with 16 samples.

Results

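Replication licensing was followed through 10 genes, MCM2, MCM3, MCM4, MCM5, MCM6, MCM7, MCM10, CDC6, CDT1 and ORC1, chosen by symbol and all found among the 25270 genes of the expression matrix. RNA was sequenced from U2OS cells, an established human osteosarcoma line, after 6 h with T5, T4 or CPT at 0.5, 2, 5, 10 and 20 µM, or with the solvent DMSO. T5 and T4 are code names of compounds that the series calls modulators of APA, the usual abbreviation of alternative polyadenylation. CPT is not spelled out in the labels and commonly stands for camptothecin, a poison of topoisomerase I. Each condition was 1 library, 16 in all, so a compound was tested against DMSO only as a trend over its 5 doses, and compounds were tested against each other over the 5 doses they share.

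Before S phase, the origin recognition complex, of which ORC1 is the largest subunit, sits on DNA and recruits CDC6. CDC6 and CDT1 then load the MCM2 to MCM7 ring, the inactive core of the replicative helicase, in pairs around the DNA. MCM10 acts later, when the loaded rings are switched on and forks begin to move. Transcription of these genes rises towards S phase under E2F factors in cycling cells, and CDC6, CDT1 and ORC1 proteins are turned over during the cycle so that an origin fires only once. RNA was measured here, not protein, and in a bulk sample a change in the share of cells in a cycle phase and a change of RNA per cell cannot be told apart.

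The promoters of 3 members are printed here, 1 for a gene that fell with T5 and T4 and holds an E2F-type match (CDC6), 1 for a gene that fell and holds none (ORC1), and 1 for a gene that was not called with any compound as deposited and holds the most matches (MCM6). They are RefSeq windows of 300 bases on GRCh38.p14, 250 before the gene start and 50 after it, read on the gene's strand. Capitals mark TTTNNCGC, searched on both strands.
CDC6, chr17:40287629-40287928, plus strand: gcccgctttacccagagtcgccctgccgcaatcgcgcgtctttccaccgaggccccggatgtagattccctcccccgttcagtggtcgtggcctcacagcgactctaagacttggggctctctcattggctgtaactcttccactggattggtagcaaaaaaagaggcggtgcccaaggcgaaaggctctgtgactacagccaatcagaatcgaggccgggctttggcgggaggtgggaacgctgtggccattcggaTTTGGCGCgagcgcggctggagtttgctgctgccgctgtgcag
ORC1, chr1:52404374-52404673, minus strand: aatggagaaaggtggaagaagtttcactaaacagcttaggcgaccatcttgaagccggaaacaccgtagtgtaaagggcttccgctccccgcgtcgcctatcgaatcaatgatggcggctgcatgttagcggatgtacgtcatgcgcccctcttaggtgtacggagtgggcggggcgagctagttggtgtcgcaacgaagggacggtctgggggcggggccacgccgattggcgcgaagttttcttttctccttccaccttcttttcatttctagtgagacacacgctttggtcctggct
MCM6, chr2:135876394-135876693, minus strand: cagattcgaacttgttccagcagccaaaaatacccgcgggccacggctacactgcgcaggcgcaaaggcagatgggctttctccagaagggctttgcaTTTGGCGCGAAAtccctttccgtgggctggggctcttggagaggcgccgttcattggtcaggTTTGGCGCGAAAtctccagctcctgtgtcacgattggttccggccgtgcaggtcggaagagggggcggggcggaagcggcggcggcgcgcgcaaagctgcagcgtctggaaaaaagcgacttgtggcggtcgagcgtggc

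A promoter window was matched for 8 of the 10 members, with MCM4 and MCM5 unmatched, and 6 of these 8 held TTTNNCGC, against 6.89% of all 35116 windows. MCM6 had 4 matches, which are 2 stretches read on both strands and overlapping, MCM3 had 3, MCM2, MCM7 and CDT1 had 2 each and CDC6 had 1. MCM7 has 3 windows, and its count is the highest of them. Members are thus counted by gene, but the shares of all windows by window. Shares by gene, or among the genes tested, were not computed. ORC1 and MCM10 held none, which says only that these letters are not in their windows. CCAAT, a short element bound by NF-Y, was in 6 of 8 members and in 34.6% of all windows. Of the 5 members called as falling with T5 and T4 as deposited, CDC6, CDT1 and MCM3 held TTTNNCGC and ORC1 and MCM10 did not.

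The libraries could be compared as follows. FPKM summed to between 238669 and 285143 per library, and the treated libraries had 0.639 to 0.997 of the depth of DMSO, judged from the spacing of small FPKM values. Total depth is unknown. Of 6 mesenchymal and bone markers all were measured, with a summed FPKM of at least 1017 in every library, but COL1A2 stayed between 0.048 and 0.133 FPKM and RUNX2 between 0.644 and 2.86. The 4 epithelial markers summed to between 1.68 and 2.83. The median log2(FPKM + 1) ratio to DMSO of the 10600 genes tested, those with a mean FPKM of at least 1, was between -0.34 and 0.02 in the treated libraries, and members are also given relative to the median of all genes.

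All 10 members passed that filter. Mean FPKM over the 16 libraries ran from 7.20 for ORC1, at percentile 51.2 of the genes tested, over 10.9 for MCM10, 13.4 for CDT1, 22.4 for MCM6, 27.3 for CDC6, 38.7 for MCM3, 46.9 for MCM2, 48.6 for MCM4 and 75.7 for MCM5 to 94.0 for MCM7, at percentile 95.1. MCM2 and MCM4 are neighbours in this order that lie well within each other's range, with 36.6 to 56.2 and 40.1 to 63.1 FPKM. The 4 factors that recognise origins, load the helicase or start it spanned far more than its 6 subunits. The highest library was 11.1 times the lowest for ORC1, 5.55 times for CDC6, 5.31 times for MCM10 and 4.63 times for CDT1. For the helicase subunits this ratio lay between 1.36 (MCM6) and 1.97 (MCM3).

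With T5, 5 members fell (ORC1, CDC6, CDT1, MCM10 and MCM3), 1 rose (MCM7) and 4 were not called, by limma with Benjamini-Hochberg adjustment over all genes, and CDT1 (0.01) changed sign with median centring. Of all genes tested, 34.5% fell and 18.2% rose with T5. With T4 the counts were 5 falling, 1 rising and 4 not called, for the same genes by name, where 32.4% of all genes fell and 14.5% rose. With CPT only CDC6 and MCM10 fell and none rose, where 25.8% of all genes fell and 17.9% rose, and 6 members had an unadjusted p under 0.05. The 3 trends share the DMSO library. Median centring gave 3 falling and 3 rising with T5, 3 and 4 with T4, and 2 and 3 with CPT, while quantile normalization gave 5 and 0, 6 and 0, and 3 and 0. With either scaling, more of all genes rose and fewer fell than as deposited, for each compound. Under median centring 4388 of the 10600 genes tested rose with T5, 4293 with T4 and 3572 with CPT. Rescaled counts of members, and of the other lists below, have to be read beside this shift. The median change of all genes, which was -0.29 with T5, -0.27 with T4 and -0.14 with CPT as deposited, was 0.38, 0.38 and 0.31 after median centring and 0.07, 0.08 and 0.07 after quantile normalization.

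ORC1, the origin recognition subunit whose level swings through the cycle, had the largest fall of the members with T5 and T4 as deposited, while with quantile normalization CDC6 fell more (-1.86 with T5 and -1.91 with T4, against -1.59 and -1.55 for ORC1). Without the 20 µM T5 library the T5 trends were -1.94 for ORC1, -1.98 for CDC6 and -2.01 for MCM10. Its FPKM was 9.52 in DMSO and 9.83, 6.95, 4.38, 2.63 and 1.34 at 0.5, 2, 5, 10 and 20 µM T5. At the same doses of T4 it was 10.6, 7.76, 4.10, 2.42 and 1.79. The 4 libraries from 2 µM upwards were below DMSO with either compound, each lower than the one before, while 0.5 µM was close to DMSO. At 20 µM its ratio to DMSO was 0.14 with T5 and 0.188 with T4. The fitted change from 0 to 20 µM on the log2(FPKM + 1) scale was -2.25 ± 0.29 with T5 (SE over 6 libraries, adjusted p = 0.002, limma) and -2.19 ± 0.31 with T4 (adjusted p = 0.00266, limma), at percentiles 4.3 and 4.2 of all genes. CPT gave another shape, with 14.8, 13.8, 9.99, 7.85 and 7.36 FPKM at 0.5, 2, 5, 10 and 20 µM. The 3 lowest CPT doses were above DMSO and the 2 highest below it. The trend fitted over DMSO and the 5 CPT libraries, -0.64 ± 0.33, missed the threshold (limma, adjusted p = 0.159). Fitted on the 5 CPT libraries without DMSO, it was -1.28 (adjusted p = 0.0206, limma).

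CDC6, the loader that ORC recruits, fell with all 3 compounds as deposited. It had 44.5 FPKM in DMSO and 36.3, 24.3, 17.7, 14.3 and 11.2 FPKM over the rising doses of T5, and 40.6, 26.5, 18.8, 14.5 and 12.1 FPKM over those of T4. Every T5 and T4 library was below DMSO. Its changes of -1.94 ± 0.10 with T5 (adjusted p = 0.000865, limma) and -1.94 ± 0.13 with T4 (adjusted p = 0.00121, limma) had the smallest errors among the members called as falling. CPT gave 62.4, 45.3, 27.3, 21.0 and 19.7 FPKM, with the lowest dose 1.4 times DMSO and the top dose 0.444 times. Its CPT trend was -1.55 ± 0.32 (adjusted p = 0.0147, limma). Without the 10 µM library it was -1.44 (adjusted p = 0.0578, limma), in a fit where 0 of all genes were called as falling.

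MCM10, which helps to activate the loaded helicase, fell with every compound. It had 17.5 FPKM in DMSO, and 19.3, 13.1, 7.61, 5.62 and 3.83 FPKM over the T5 doses. With T4 it had 20.1, 16.2, 10.1, 6.80 and 4.85 FPKM. With CPT it had 20.3, 12.8, 6.26, 5.07 and 4.87 FPKM. In all 3 series the 0.5 µM library was above DMSO and every higher dose below it. The fitted changes were -2.14 ± 0.25 with T5 (adjusted p = 0.00159), -1.84 ± 0.29 with T4 (adjusted p = 0.00375) and -2.08 ± 0.31 with CPT (adjusted p = 0.0105), by limma. Without the 10 µM library the CPT trend was -1.98 and its call was lost (adjusted p = 0.0537, limma). In that fit 0 of all genes were called as falling and 1 as rising.

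CDT1, the partner of CDC6 in loading and the factor that geminin blocks, was the member whose deposited values lay on opposite sides of DMSO with CPT and with the other compounds. It had 14.6 FPKM in DMSO and 11.9, 13.1, 13.3, 10.3 and 7.50 FPKM with T5, 12.7, 11.6, 9.37, 7.49 and 5.01 FPKM with T4, and 20.1, 23.2, 19.7, 17.3 and 17.6 FPKM with CPT. All 10 T5 and T4 libraries lay below DMSO and all 5 CPT libraries above it, so the CPT libraries do not overlap with the others at any dose. This split is not special to CDT1, since LRWD1 and GINS4, from the other lists below, lay around DMSO in the same way. How many of all genes do so was not counted. The tests of mean difference given below measure something else, since they leave DMSO out. In these, 37.6% of all genes were called as lower and 25.0% as higher with T5 than with CPT. With T4 these shares were 36.9% and 28.3%. The T4 trend was -1.28 ± 0.20 (adjusted p = 0.00373, limma), with -0.63 and adjusted p = 0.0514 after median centring. The T5 trend of -0.67 ± 0.23 only just passed (adjusted p = 0.0491, limma), vanished with median centring (0.01), and was -0.35 without the 20 µM library. Leaving out 1 library at a time kept its call in 1 of 6 fits, with adjusted p up to 0.249 (limma). With quantile normalization it was -0.21 (adjusted p = 0.535, limma). Its call was also lost with no filter (adjusted p = 0.0922), a filter of 5 (0.0583), no variance trend (0.053) and linear dose (0.0604), by limma. The CPT trend was 0.07 ± 0.25, since CDT1 was highest at 2 µM, and was not called (adjusted p = 0.825, limma).

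**Figure D1:**
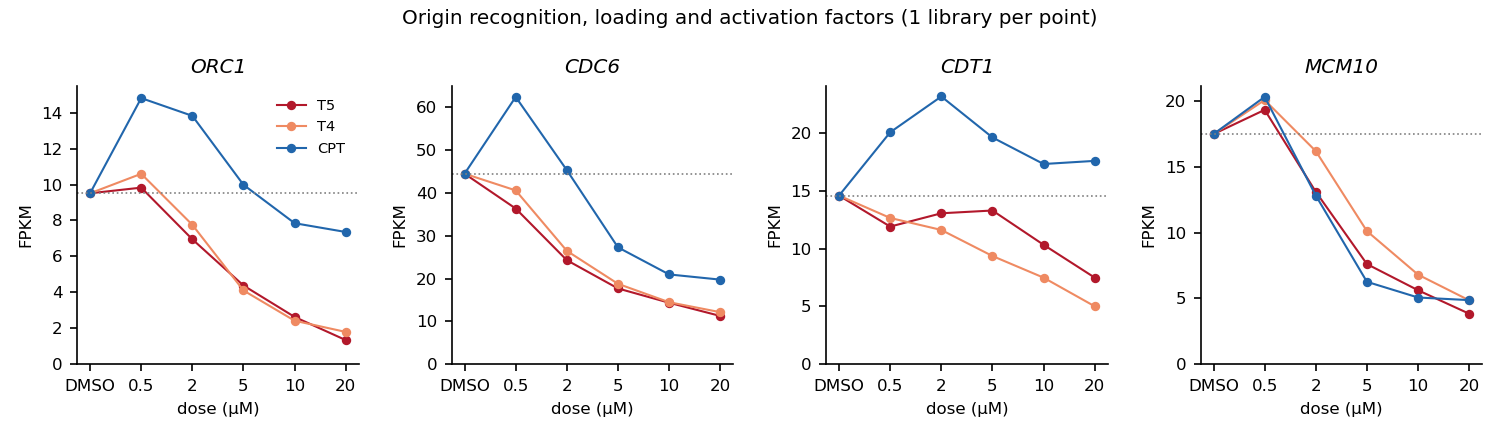
FPKM of ORC1, CDC6, CDT1 and MCM10 (vertical axes, linear) against dose in µM (evenly spaced steps, DMSO at the left), 1 library per point, with T5, T4 and CPT as lines and the DMSO level dotted. ORC1 reached 1.34 FPKM with T5 and 1.79 with T4 at 20 µM against 9.52 in DMSO, while CDT1 stayed above its DMSO level of 14.6 at every CPT dose.

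The 6 subunits of the helicase ring stayed in a narrow range, and their summed FPKM lay between 303.0, in DMSO, and 348.6, in 5 µM T5. The FPKM of all genes also summed to the least in DMSO (238669) and to the most in 5 µM T5 (285143). MCM3 is the subunit that fell as deposited, with a T4 trend of the other sign and no call for T5 or T4 after median centring. Its FPKM was 53.9 in DMSO, the highest of all 16 libraries, and 47.0, 38.0, 34.2, 30.9 and 35.2 over the T5 doses. With T4 it was 51.3, 39.8, 35.1, 41.0 and 38.6, and with CPT 45.1, 27.4, 32.3, 35.5 and 34.2. The series do not keep falling: the lowest library was 10 µM with T5, 5 µM with T4 and 2 µM with CPT. The trends were -0.70 ± 0.15 with T5 (adjusted p = 0.0099, limma) and -0.51 ± 0.16 with T4 (adjusted p = 0.0425, limma), but -0.03 and 0.14 with median centring. The CPT value was -0.59 ± 0.29 and missed the threshold (adjusted p = 0.138, limma). Relative to the median of all genes the deposited trends are -0.41, -0.24 and -0.45 with T5, T4 and CPT. The T4 call was lost without any 1 of the 0.5, 5, 10 or 20 µM libraries or DMSO, with adjusted p up to 0.17.

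MCM7 is the subunit that rose. It had 78.3 FPKM in DMSO and 81.7, 100.3, 113, 108 and 103 FPKM over the T5 doses, 80.2, 90.6, 98.9, 109 and 94.4 over the T4 doses, and 73.3, 91.2, 94.9, 96.8 and 91.8 over the CPT doses. All T5 and T4 libraries and 4 of 5 CPT libraries were above DMSO. The rise was 0.48 ± 0.14 with T5 (adjusted p = 0.0266, limma) and 0.40 ± 0.12 with T4 (adjusted p = 0.0365, limma), but 0.08 with quantile normalization in both, where it was not called. It lay 0.78 and 0.67 above the median of all genes. The CPT value was 0.35 ± 0.13 (adjusted p = 0.0683, limma). Leaving out 1 library at a time kept the T5 call in 3 of 6 fits and the T4 call in 1 of 6, with adjusted p up to 0.114 with T5 (without DMSO) and 0.12 with T4 (without DMSO). On the opposite strand AP4M1 overlaps MCM7 over 392 bases in GENCODE, at 1.98 to 8.92 FPKM, and reads there cannot be told apart without strand.

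MCM2 and MCM5 were lowest in DMSO among all 16 libraries, yet neither was called in any trend as deposited. With median centring MCM5 was called as rising with T5 (0.92, adjusted p = 0.00972), T4 (0.90, adjusted p = 0.00354) and CPT (0.92, adjusted p = 0.0126) and MCM2 with CPT (0.80, adjusted p = 0.00978), by limma, and with quantile normalization none of these was called. MCM5 had 69.4 to 77.9 FPKM with T5, 69.6 to 78.2 with T4 and 78.8 to 87.9 with CPT, against 57.9 in DMSO. With CPT it was 78.8 FPKM at 0.5 µM and 86.3 to 87.9 from 2 µM upwards. With T5 it was highest at 5 µM and with T4 at 10 µM. The trends over log2(1 + dose / 0.5 µM) were 0.25 ± 0.14, 0.26 ± 0.13 and 0.47 ± 0.18 for T5, T4 and CPT. MCM2 peaked at 2 µM of T5 (56.2 FPKM) and of T4 (54.0), with 40.3 and 37.6 at 20 µM, while CPT gave 45.5 to 50.9, all against 36.6 in DMSO. Its trends were 0.01 ± 0.27 with T5, -0.07 ± 0.23 with T4 and 0.35 ± 0.13 with CPT. TPRA1, at 0.71 to 8.96 FPKM, overlaps MCM2 on the opposite strand over 45 bases in GENCODE. DMSO is a single library, and its FPKM summed over all genes (238669) was also the lowest of the 16. How far this sum or its own scatter enters these differences was not tested.

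MCM4 and MCM6 were not called as deposited either. With quantile normalization MCM4 was called as falling with T5 (-0.52, adjusted p = 0.0117), T4 (-0.36, adjusted p = 0.0485) and CPT (-0.76, adjusted p = 0.0482), by limma, whereas with median centring it was called as rising with T4 (0.46, adjusted p = 0.0233). With median centring the median trend of all genes was itself 0.38 with T4 and 0.38 with T5. MCM6 was called as rising with median centring, with T5 (0.62, adjusted p = 0.0123) and T4 (0.73, adjusted p = 0.0127), by limma. MCM4 had 42.8 to 57.3 FPKM with T5, 47.3 to 57.4 with T4 and 40.1 to 63.1 with CPT, against 50.1 in DMSO, with the highest library of each compound at 0.5 µM. Its trends were -0.32 ± 0.12, -0.19 ± 0.12 and -0.51 ± 0.20 with T5, T4 and CPT. MCM6 had 19.7 to 23.4 FPKM with T5, 20.3 to 26.4 with T4 and 19.4 to 22.8 with CPT, against 26.3 in DMSO. In each series its lowest library was that of 2 µM, and its trends were -0.06 ± 0.17, 0.08 ± 0.19 and -0.19 ± 0.17. The adjusted p of these 6 deposited-scale trends by limma lay between 0.0643 and 0.807.

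**Figure D2:**
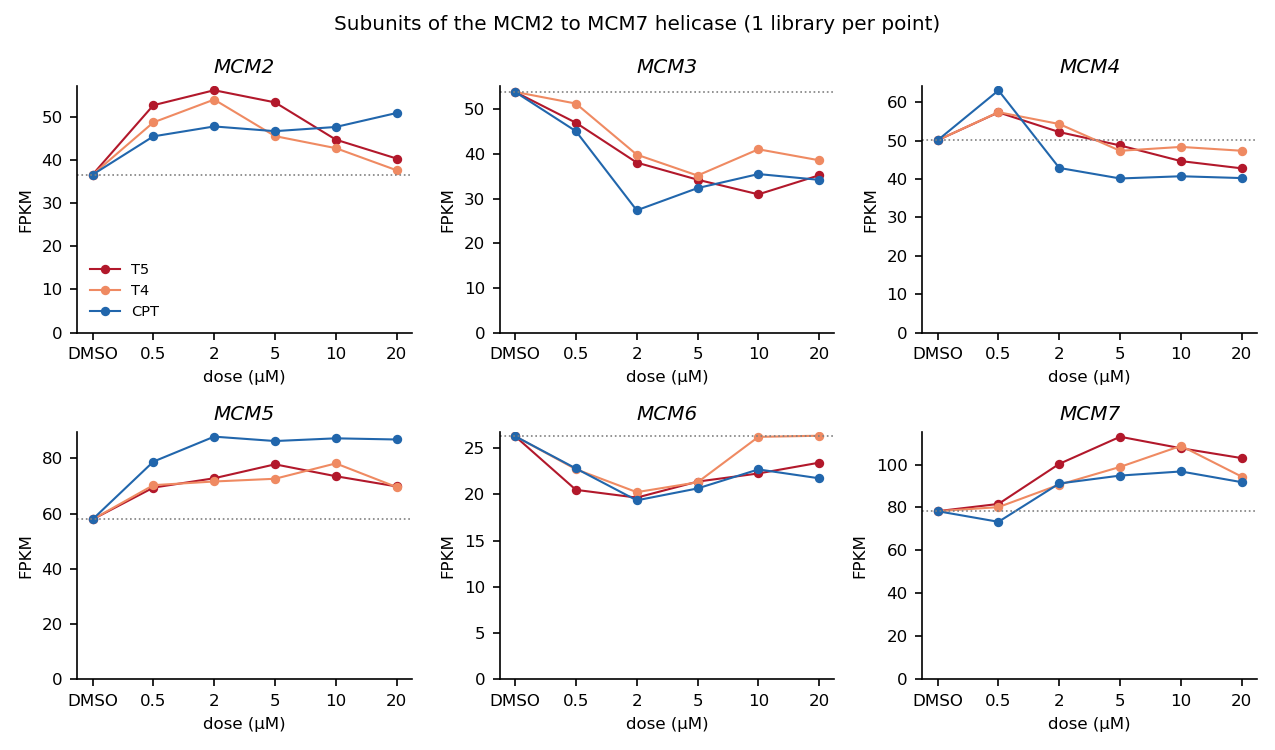
FPKM of the helicase subunits MCM2 to MCM7 (vertical axes, linear, from 0) against dose in µM (evenly spaced steps, DMSO at the left), 1 library per point, with T5, T4 and CPT as lines and the DMSO level dotted. As deposited, MCM3 was below its DMSO level of 53.9 FPKM and MCM5 above its level of 57.9 FPKM in every treated library.

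The make-up of the ring's RNA shifted within these limits. At 20 µM T5, MCM7 made up 32.7% of the summed FPKM of the 6 subunits, MCM5 22.2%, MCM3 11.2%, MCM4 13.6%, MCM2 12.8% and MCM6 7.5%. In the same order of genes the shares were 30.1%, 22.2%, 12.3%, 15.1%, 12.0% and 8.4% at 20 µM T4, and 28.2%, 26.7%, 10.5%, 12.4%, 15.6% and 6.7% at 20 µM CPT. In DMSO they were 25.8%, 19.1%, 17.8%, 16.5%, 12.1% and 8.7%. MCM3 thus had a lower share, and MCM5 and MCM7 a higher one, than in DMSO at the top dose of each compound. FPKM is scaled by length, so shares of different subunits can be set side by side, although they are of RNA and not of protein.

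**Figure D3:**
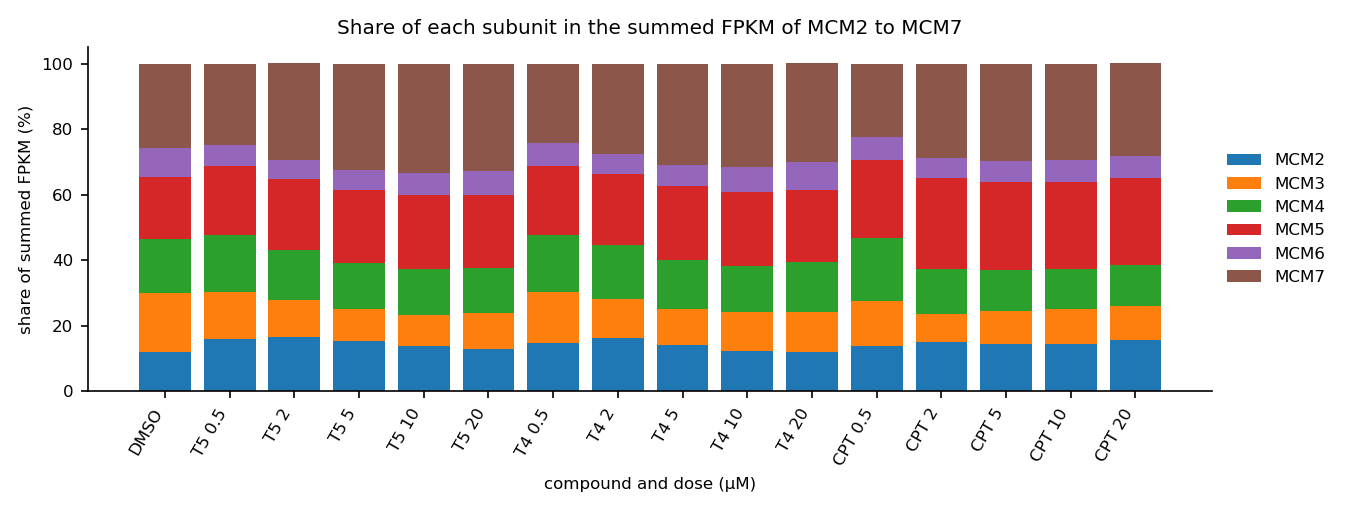
Stacked bars of the share (%) of each of MCM2 to MCM7 in their summed FPKM, 1 bar per library, DMSO at the left and each compound from 0.5 to 20 µM. The MCM3 part was between 8.6% and 15.5% in the treated libraries, against 17.8% in DMSO.

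The fitted changes can be read together with that of all genes. The median change of the 10 members was -0.49 with T5, -0.35 with T4 and -0.35 with CPT, beside -0.29, -0.27 and -0.14 for all genes. ORC1, CDC6 and MCM10 lay between 1.57 and 1.96 below the median of all genes with T5 and T4, whereas MCM2, MCM4, MCM5 and MCM6 lay between -0.02 and 0.54 of it. Across all single-library omissions, ORC1, CDC6 and MCM10 were called as falling in 6 of 6 fits with T5 and in 6 of 6 with T4. As annotated in GENCODE, MCM10 spans 49.6 kb, ORC1 31.6, CDC6 17.0 and CDT1 6.0, and the helicase subunits between 9.2 (MCM7) and 36.8 (MCM6), with a median of 31.3 kb for the tested genes that have a span. The part of gene length in these changes was not tested.

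**Figure D4:**
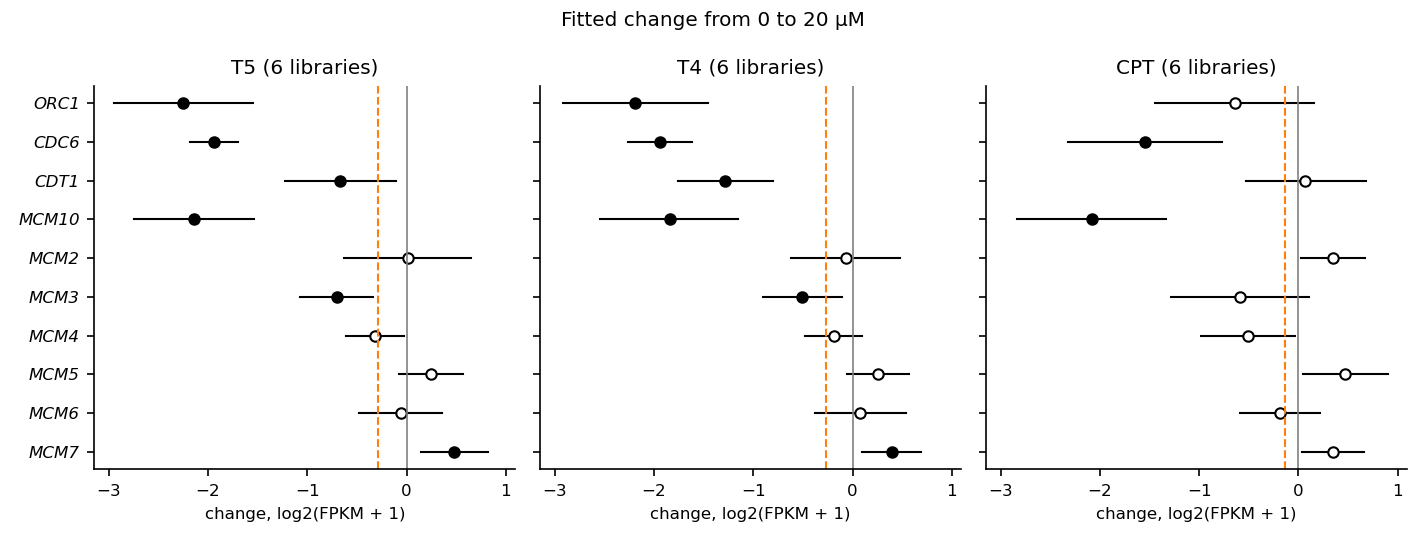
Fitted change from 0 to 20 µM of each member on the log2(FPKM + 1) scale, with its 95% confidence interval, for T5, T4 and CPT (6 libraries each); filled points passed the test, open points did not, the grey line is 0 and the dashed line the median of all genes. ORC1, CDC6 and MCM10 lie near -2 with T5 (-2.25, -1.94 and -2.14), with the helicase subunits between -0.70 and 0.48.

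The 3 pairs of compounds were compared over the 5 matched doses, without DMSO. ORC1, CDC6 and CDT1 were lower with T5 than with CPT at every dose, and likewise with T4. The ORC1 difference was -1.12 ± 0.18 for T5 minus CPT (SE over 10 libraries, adjusted p = 0.00205) and -1.05 ± 0.17 for T4 minus CPT (adjusted p = 0.00219), by limma. For CDC6 it was -0.70 ± 0.07 and -0.61 ± 0.06 (adjusted p = 0.00034 and 0.000526, limma), and for CDT1 -0.77 ± 0.09 and -1.06 ± 0.14 (adjusted p = 0.000705 and 0.00104, limma). In all, 4 members were lower and 1 higher with T5 than with CPT, where 37.6% of all genes were lower and 25.0% higher. With T4 against CPT, 4 were lower and 1 higher, where 36.9% of all genes were lower and 28.3% higher. Median centring gave 3 lower and 4 higher for T5 and 4 and 4 for T4, and quantile normalization 4 and 1 for T5 and 4 and 3 for T4. Of the 10600 genes tested, 3986 were higher with T5 than with CPT under median centring.

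The fourth member lower than with CPT was MCM5, at -0.23 ± 0.04 with T5 and -0.23 ± 0.04 with T4, lower at 5 of 5 doses in both (adjusted p = 0.0031 and 0.00351, limma). The T5 value was -0.04 with median centring. Higher with T5 was MCM7 (0.17 ± 0.04, adjusted p = 0.0063, limma), and higher with T4 was MCM3 (0.24 ± 0.07, adjusted p = 0.0232, limma). The MCM3 call was lost without the 10 µM libraries (adjusted p = 0.0569, limma). MCM10 was not called against CPT as deposited, with 0.01 for T5 (95% interval -0.21 to 0.23) and 0.25 for T4 (-0.01 to 0.52). The T4 difference of MCM10 was called as higher with median centring (0.34, adjusted p = 0.0405, limma) and with quantile normalization (0.34, adjusted p = 0.0495, limma). Of the other helicase subunits, MCM6 was at 0.00 for T5 (-0.13 to 0.13) and 0.11 for T4 (-0.04 to 0.27), MCM4 at 0.13 (-0.04 to 0.29) and 0.18 (0.00 to 0.36), and MCM2 at 0.04 (-0.18 to 0.26) and -0.07 (-0.29 to 0.15). With median centring MCM4 was called as higher with T5 (0.31, adjusted p = 0.0135) and T4 (0.27, adjusted p = 0.0403) and MCM2 with T5 (0.23, adjusted p = 0.0492), by limma.

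Between T5 and T4 the members differed by at most 0.29 on average. MCM2 (0.11 ± 0.03) and CDT1 (0.29 ± 0.09) were higher and MCM10 (-0.24 ± 0.05) lower with T5 than with T4, with adjusted p of 0.047, 0.0452 and 0.0139 by limma, where 6.05% of all genes were higher and 26.5% lower. CDT1 was higher with T5 at 4 of 5 doses, and MCM10 lower at 5 of 5. The MCM2 call was lost without any 1 dose (adjusted p up to 0.129), the CDT1 call in 4 of 5 such fits (up to 0.136) and the MCM10 call in 2 of 5, without 2 µM (0.0547) and without 5 µM (0.0537). ORC1 differed by -0.07 (95% interval -0.21 to 0.08) and CDC6 by -0.09 (-0.17 to -0.01, adjusted p = 0.0708), which bounds the difference of these 2 genes to 0.21 log2 units. Intervals of the remaining members lay within -0.28 and 0.19. Median centring gave 3 higher and 0 lower, with MCM10 no longer called (adjusted p = 0.0749, limma), and quantile normalization 1 of each, with MCM2 no longer called (adjusted p = 0.0772, limma). Of the 10600 genes tested, 2622 were higher with T5 than with T4 under median centring. Adjusted over all genes of the 3 pairs together, the same numbers of members were called in each pair.

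**Figure D5:**
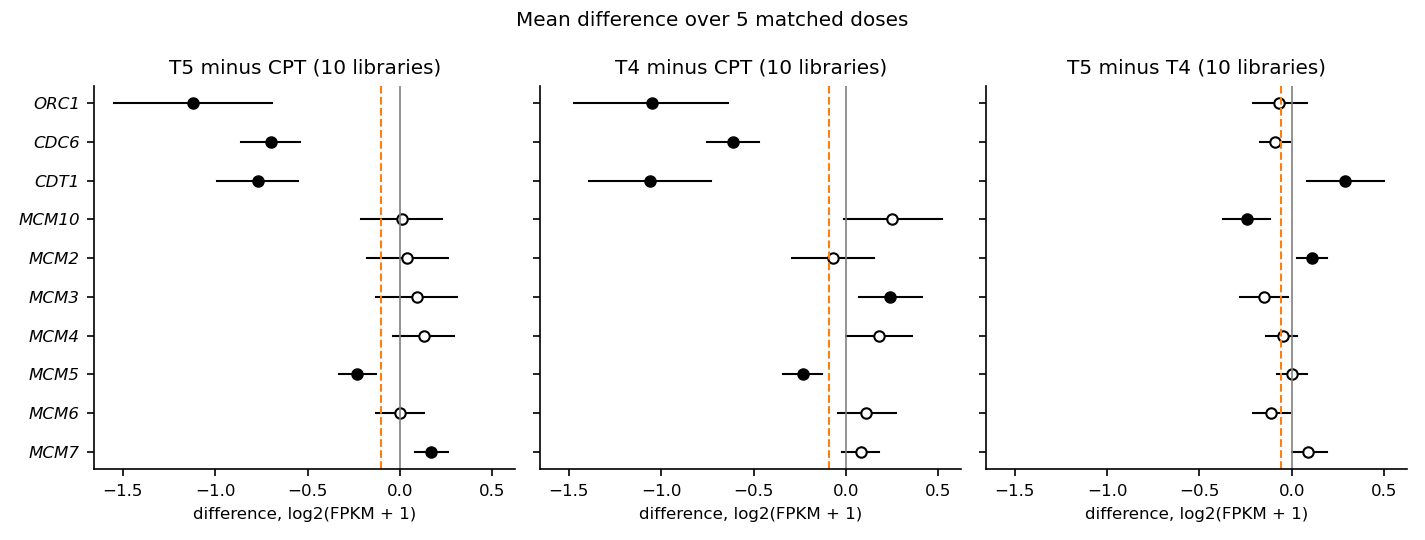
Mean difference of each member over 5 matched doses on the log2(FPKM + 1) scale, with its 95% confidence interval, for T5 minus CPT, T4 minus CPT and T5 minus T4 (10 libraries each); filled points passed the test, the grey line is 0 and the dashed line the median of all genes. ORC1, CDC6 and CDT1 lie between -1.12 and -0.61 in both comparisons with CPT and between -0.09 and 0.29 between T5 and T4.

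Other genes of the pathway are given from 4 lists, by their counts and medians beside those of all genes above. Of 10 origin recognition and licensing partners, 6 fell and none rose with T5, 7 and none with T4, and 6 and 1 with CPT, with median changes of -1.08, -1.09 and -1.25. ORC6, the smallest subunit of the recognition complex, fell by 2.16 ± 0.14 with T5, to 4.90 FPKM at 20 µM against 23.9 in DMSO, and MCMBP, which binds MCM subunits outside chromatin, fell by 2.03 ± 0.25. With T4, ORC5 fell by 2.15 ± 0.33 and ORC2 fell by 1.85 ± 0.41, and with CPT ORC5 fell by 2.48 ± 0.64 and MCMBP fell by 2.4 ± 0.37. LRWD1, which holds the recognition complex on chromatin, rose by 1.07 ± 0.28 with CPT (39.2 FPKM at 20 µM against 16.1 in DMSO). Adjusted p of these 7 changes by limma lay between 0.000865 and 0.0241, and each kept its sign and call with both scalings. With median centring 4 partners fell and 2 rose with T5, 4 and 1 with T4, and 6 and 1 with CPT. With quantile normalization the split was 3 and 1, 4 and 1, and 6 and 1. As deposited, ORC6, MCMBP, ORC5 and ORC2 were called as falling with each compound. LRWD1 was at -0.03 with T5 (adjusted p = 0.882) and -0.44 with T4 (adjusted p = 0.0376), by limma.

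Among 13 genes of origin firing, 7 fell and 1 rose with T5, 7 and 1 with T4, and 6 and none with CPT, with medians of -1.08, -1.12 and -1.32. DBF4, the activating subunit of the CDC7 kinase, fell by 2.37 ± 0.38 with T5 and fell by 2.22 ± 0.52 with T4, and GINS3, a subunit of the helicase activator GINS, fell by 2.31 ± 0.47 with T5 and fell by 2.26 ± 0.54 with T4. With CPT, CDC7 itself fell by 1.93 ± 0.44 and MTBP, a partner of the firing factor TICRR, fell by 1.83 ± 0.35. CDC45, which joins MCM2 to MCM7 and GINS in the working helicase, was the gene that rose, by 0.43 ± 0.10 with T5 and 0.39 ± 0.13 with T4, but by 0.13 and 0.15, not called, with quantile normalization. Adjusted p of these 8 changes as deposited lay between 0.00352 and 0.0415 by limma, and the GINS3 call with T4 was lost with quantile normalization (adjusted p = 0.0529). With median centring 4 fell and 3 rose with T5, 5 and 3 with T4, and 5 and 1 with CPT, and with quantile normalization 4, 3 and 4 fell and none rose. As deposited, DBF4 also fell with CPT (-1.61, adjusted p = 0.012, limma). CDC7 also fell with T5 (-1.56, adjusted p = 0.0395) and T4 (-1.78, adjusted p = 0.0148), by limma. GINS3 with CPT (-0.19), MTBP with T5 (-0.62) and T4 (-0.52), and CDC45 with CPT (0.41) were not called.

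Of 28 replisome and DNA synthesis genes, 11 fell and 5 rose with T5, 11 and 4 with T4, and 12 and 6 with CPT, with medians of -0.36, -0.30 and -0.55. RFC4, a clamp loader subunit, fell by 2.51 ± 0.33 with T5 and fell by 2.26 ± 0.22 with T4. The polymerase delta subunit POLD3 fell by 2.26 ± 0.33 with T5, fell by 2.33 ± 0.24 with T4 and fell by 2.52 ± 0.51 with CPT. RFC1, the large clamp loader subunit, fell by 3.12 ± 0.56 with CPT, to 2.87 FPKM at 20 µM against 24.5 in DMSO. POLD2 rose by 0.74 ± 0.12 with T5 and 0.90 ± 0.18 with CPT, LIG1, a DNA ligase, by 0.53 ± 0.12 with T5, POLE3 by 0.89 ± 0.20 with T4 and 0.72 ± 0.21 with CPT, and TIMELESS, a fork protection factor, by 0.67 ± 0.20 with T4. POLD2 is a subunit of polymerase delta and POLE3 one of polymerase epsilon. Adjusted p of these 12 changes by limma lay between 0.00124 and 0.0332. All kept their sign with median centring and quantile normalization, but with quantile normalization POLE3 with CPT lost its call (0.39, adjusted p = 0.155, limma) and POLD2 rose by only 0.34 with T5 and 0.47 with CPT. With median centring the split was 7 falling and 12 rising with T5, 6 and 12 with T4, and 9 and 9 with CPT. Quantile normalization gave 10 and 8, 8 and 8, and 10 and 6. As deposited, RFC4, POLD3, RFC1, POLD2, LIG1 and TIMELESS were called in the same direction with each compound. RFC1 was at -2.10 with T5 and -1.78 with T4, and RFC4 at -1.96 with CPT. POLE3 was not called with T5 (0.56, adjusted p = 0.216, limma).

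Of 9 genes that act on the turnover of licensing factors, for or against it, 4 fell and none rose with each compound. Their medians were -0.68, -0.36 and -0.55 for T5, T4 and CPT. CCNF, cyclin F, the receptor of a ubiquitin ligase that acts on CDC6, fell by 3.28 ± 0.23 with T5 and fell by 3.11 ± 0.24 with T4, to 1.61 and 2.22 FPKM at 20 µM against 21.8 in DMSO. With CPT it fell by 1.0 ± 0.17, but by limma its adjusted p was 0.055 with median centring. FBXO5, an inhibitor of the anaphase-promoting complex, fell by 2.92 ± 0.50 with T5 and fell by 3.3 ± 0.57 with T4. DTL, the receptor of the ligase that marks CDT1 for destruction in S phase, fell by 3.17 ± 0.48 with CPT, to 1.64 FPKM at 20 µM against 17.1 in DMSO. Adjusted p of these 6 changes by limma lay between 0.000869 and 0.011. Median centring gave 3 falling and 2 rising with T5, 4 and 2 with T4, and 1 and 2 with CPT, and quantile normalization 3 and 0, 4 and 1, and 3 and 0. As deposited, DTL also fell with T5 (-2.13, adjusted p = 0.00103) and T4 (-2.08, adjusted p = 0.00146), by limma. FBXO5 was not called with CPT (0.05, adjusted p = 0.736, limma).

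Over the 16 libraries, the tested gene most like ORC1 in log2(FPKM + 1) was PRPF4 (Pearson r = 0.995), that most like MCM10 was PPIG (0.996), and that most like CDC6 was CYB5D1 (0.992). For CDT1 it was LGALSL (0.977), for MCM7 ALYREF (r = 0.975), for MCM4 FAM105A (0.973), for MCM3 MED15 (0.964), for MCM5 EBNA1BP2 (0.954), for MCM6 PUS7 (0.941) and for MCM2 ARMC5 (0.937). Among fellow members, ORC1 and CDC6 were each other's most similar gene (0.93), at rank 434 among all genes for ORC1 and 358 for CDC6. CDT1 was most like ORC1 (0.865) and MCM10 most like CDC6 (0.847). The most similar member was MCM10 for MCM4 (0.821), MCM4 for MCM3 (0.731), CDT1 for MCM5 (0.511), MCM3 for MCM6 (0.453), CDT1 for MCM2 (0.421) and MCM5 for MCM7 (0.266). These values describe 16 libraries that share 3 dose series and 1 control, and high values are common where so many genes follow dose.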

How the data were processed

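RNA of 16 U2OS libraries (5 doses each of T5, T4 and CPT, and 1 of DMSO) was deposited by the authors in a single table of FPKM, whose file headers name 1 library per column. The submitters' processing notes list hg19, GRCh37, GSNAP and Cufflinks with no roles. Sources used here do not give versions, annotation or strand. After 2 inner header lines, 1 incomplete line and 220 identical repeat lines were left out, 25270 genes remained. An exact 0 can be a failed estimate. Since FPKM divides depth out, relative depth was read from steps of values under 0.2, with a smoothing width of 0.02 log2 units.

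Deposited values were put on the log2(FPKM + 1) scale, and the 10600 genes averaging 1 FPKM or more were kept. A fold change on this scale understates that of low genes. limma 3.58.1 (R 4.3.3, data.table version 1.17.8) with a mean-variance trend gave 2-sided p-values, adjusted by Benjamini-Hochberg over all genes at 0.05. Trends used 6 libraries and log2(1 + dose / 0.5 µM), scaled to 20 µM. Pairs used 10 libraries with dose as a block. No label states that cultures were separate. The p-values therefore reflect only how single libraries scatter about a line or a mean difference, and this scatter may be technical or come from a curved response. The script was tested on simulated data. Tables used pandas 2.3.3 and numpy 2.4.6 under Python 3.11.15, and plots matplotlib 3.10.9. Gene spans came from GENCODE, found for 94.7% of tested genes.

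The members, lists and tests were chosen with earlier results of these data known. All members are named, with, of each other list and trend, up to 2 rising and 2 falling called genes with the largest change, and for each member the most similar gene and fellow member. Lists are described by counts. Alternatives were another pseudocount (0.1), no filter or one of 5, median centring, quantile normalization, no variance trend, linear dose, no dose block, adjustment over the 3 pairs, and each library or dose left out.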

Additional observations from a re-analysis of the deposited data

How the results depend on the processing

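The falls of ORC1, CDC6 and MCM10 with T5 and T4 kept their sign under every alternative run. They also kept their call, except CDC6 with T5 on a linear dose scale (adjusted p = 0.0544, limma). With CPT, CDC6 and MCM10 lost their call on that scale (adjusted p = 0.32 for both, limma). The lower ORC1 and CDC6 with T5 and T4 than with CPT kept their sign throughout and their call except without the dose block (adjusted p = 0.229 for CDC6 and 0.0531 for ORC1 with T4, and 0.172 for CDC6 with T5). CDT1 kept both against CPT.

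Counts of members falling were 3 with T5 and 3 with T4 under median centring, 2 with T5 and 0 with CPT on linear dose, and between 4 and 5 (T5), 4 and 5 (T4) and 0 and 3 (CPT) leaving out 1 library, with 0 for CPT without 10 µM. Members rising numbered 3 (T5), 4 (T4) and 3 (CPT) with median centring, 0 with T5 and with T4 with no filter, with quantile normalization and on linear dose, 0 with T4 without a variance trend, and between 0 and 1 (T5 and T4) leaving out 1 library. Higher than with CPT were 4 (T5) and 4 (T4) with median centring, 3 (T4) with quantile normalization, 0 of either without the dose block, and between 1 and 2 (T5) and 0 and 2 (T4) leaving out 1 dose. Lower than with CPT were 2 (T4) without the block. For T5 minus T4, the count of higher members was 0 with no filter and without the block, 1 with a filter of 5, with quantile normalization and without a variance trend, and between 0 and 1 leaving out 1 dose. The count of lower members was 0 with median centring and without the block, and between 0 and 1 leaving out 1 dose. Cause was not tested for any of these.

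Signs turned with median centring for MCM4 (0.35), MCM6 (0.62, adjusted p = 0.0123, limma) and CDT1 (0.01) with T5, MCM2 (0.58), MCM3 (0.14) and MCM4 (0.46, adjusted p = 0.0233, limma) with T4, MCM6 (0.26) with CPT, MCM6 (0.19) for T5 minus CPT, MCM2 (0.02) for T4 minus CPT, and MCM4 (0.05), CDC6 (0.01) and ORC1 (0.04) for T5 minus T4. With quantile normalization they turned for MCM2 (-0.13), MCM5 (-0.07) and MCM6 (0.06) with T5, MCM5 (-0.01) with T4, MCM7 (-0.04) with CPT, MCM6 (0.07) for T5 minus CPT, MCM2 (0.01) for T4 minus CPT, and MCM5 (-0.04) and ORC1 (0.03) for T5 minus T4. On linear dose they turned for MCM2 (-0.22) and MCM6 (0.07) with T5 and CDT1 (-0.09) with CPT. Leaving out 1 library, values ran between -0.51 and 0.29 for MCM2 and -0.19 and 0.26 for MCM6 with T5, -0.51 and 0.17 for MCM2 and -0.06 and 0.36 for MCM6 with T4, -0.27 and 0.03 for MCM6 and -0.36 and 0.22 for CDT1 with CPT. For T5 minus CPT they ran between -0.01 and 0.13 for MCM2, 0.00 and 0.16 for MCM3, -0.03 and 0.04 for MCM6 and -0.05 and 0.08 for MCM10, for T4 minus CPT between -0.13 and 0.02 for MCM2, and for T5 minus T4 between -0.02 and 0.03 for MCM5.

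Of all genes, on linear dose 23 rose and 545 fell with T5, 99 and 1328 with T4 and 0 and 0 with CPT, against 1929 and 3658, 1533 and 3438, and 1899 and 2739 as fitted. With median centring 4388 rose with T5, 4293 with T4 and 3572 with CPT. The median trend of all genes then turned sign as well, to 0.38 with T5, 0.38 with T4 and 0.31 with CPT. Without the 10 µM CPT library 1 gene rose and 0 fell with CPT. Without the dose block 0 genes were higher and 0 lower for T5 minus T4. Unknown depth leaves no counting interval for any value.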
